A study of Mus musculus with 2 samples.

Results

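H3K9me2, the dimethylated form of histone H3 lysine 9 that marks silent chromatin, was described at 59 genes of axon guidance in activated mouse B cells. The genes were 20 semaphorins, 7 plexins, 2 neuropilins, 3 Slit and 4 Robo genes, 4 netrins, 5 genes of the netrin receptors Dcc and Unc5, and 9 EphA and 5 EphB receptors, taken by symbol out of 21774 protein-coding genes of the RefSeq table. All 59 symbols matched. Each gene was measured as its body with 2 kb on both sides, here its window, and a peak was counted where it overlapped a window by at least 1 bp. The data were 2 broad peak lists from CUT&Tag, in which an antibody guides a transposase to marked chromatin. One came from activated B cells of C57BL/6 mice labelled jmjd1c B KO (KO), and the other from activated B cells of C57BL/6 wild-type mice (WT). The Jmjd1c product has a jumonji domain and is related to enzymes that remove methyl groups from H3K9. The Cre line, the activating stimulus, the ages and the number of mice are not given in the sources used here.

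Semaphorins are secreted or membrane-bound ligands that turn growing axons, vessels and migrating cells by way of plexins, with neuropilins as coreceptors for most of class 3. Slits act through Robo receptors, secreted netrins such as Ntn1 through Dcc and Unc5 receptors, and ephrins through Eph receptor tyrosine kinases. In the immune system, Sema4d, also known as CD100, is made by lymphocytes, Sema4a and Sema7a act in immune responses, and Plxnb2 and Plxnd1 are plexins found on B cells of germinal centres.

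The KO list rested on 34502392 tags and the WT list on 33474010, with 32149 and 31623 peaks on chromosomes 1 to 19, X and Y. Each genotype had 1 library, so differences could not be checked against replicates and carry no p-value. Intervals are exact 95% intervals that cover counting error only. They treat peaks as independent, although many places have a peak in both libraries, and duplicate tags were kept. The peak caller used a fragment length, d, of 189 bp for KO and 292 bp for WT, which is also the least width a peak can have, so KO peaks could be narrower. Of the KO peaks, 33.3% were narrower than 292 bp. Jmjd1c itself had no peak in either library, so these lists do not check the deletion. The B cell genes Pax5, Ebf1, Cd79a, Cd79b, Ms4a1 and Cd22 also had no peak in either library, and of the T cell and myeloid markers only Themis (23 KO and 22 WT peaks) and Adgre1 (1 and 1) had any. Expression was not measured.

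A minority of the guidance genes had a peak, and nearly all of these were long. In KO, 23 of the 59 genes had a peak in their window, against 9.9% of all protein-coding genes, and in WT 25 did, against 9.69%. All 23 were among the 25, which left Ephb6 and Unc5d with a peak in WT only (1 each), a class that held 1.9% of all genes. No member had a peak in KO only, a class that held 2.11%. Together the windows held 260 KO peaks (229 to 294) and 232 WT peaks (203 to 264), or 19.4 and 17.3 per Mb. All protein-coding windows held 8.92 KO and 8.75 WT peaks per Mb. By covered length the order turned, with 123.1 kb of the member windows under KO peaks and 138.5 kb under WT peaks (ratio 0.889). Over all coding windows that ratio was 0.818. Peak number and covered length are thus different measures.

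Window length went with most of this. Of 23 members with a window under 50 kb, 0 had a peak in KO and 1, Ephb6, in WT, while 5.47% and 5.34% of all genes of that length had one. Of 4 members of 50 to 100 kb, none had a peak in either library. Among 13 members of 100 to 200 kb, 5 had a peak in KO and the same number in WT (38.5% in each), against 23.1% and 22.35% of all such genes. All 8 members of 200 to 400 kb had a peak in each library, against 49.2% of all such genes in KO and 48.5% in WT. Of 11 members of 400 kb or more, 10 had one in KO and 11 in WT, against 81.4% and 82.8% of all such genes. Peak density in members of 200 to 400 kb was 33.5 per Mb in KO and 30.6 in WT, above the 12.6 and 12.8 per Mb of all genes of that length. In the longest class it was 18.7 and 16.6 per Mb, near the 18.4 and 17.9 per Mb of all such genes. These differences from other genes were not tested.

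**Figure D1:**
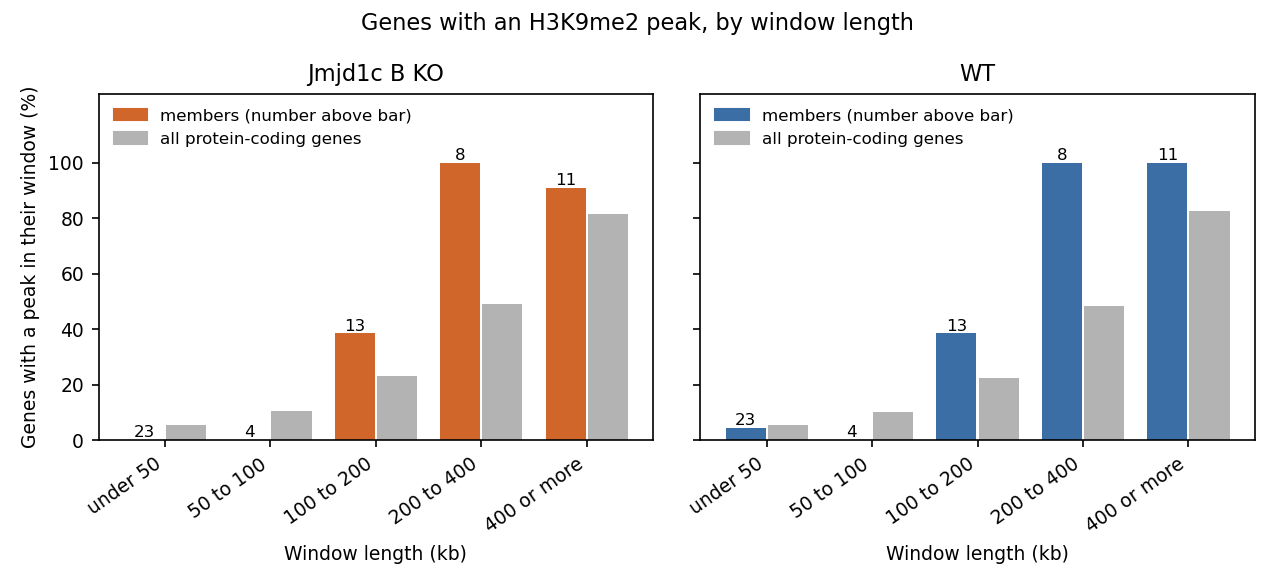
Share of genes (y axis, percent) with at least 1 H3K9me2 peak in their window, by window length in kb (x axis), in the KO library (left) and the WT library (right). Coloured bars are the 59 guidance genes, with the number of genes in each class above the bar, and grey bars are all protein-coding genes. Members of 200 to 400 kb reach 100% in each library against 49.2% and 48.5% of all genes, and members under 100 kb are at 0 except for 1 gene in WT.

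Family by family, class 6 and class 3 semaphorins had the highest peak density in KO, and class 3 semaphorins and netrins in WT. The 7 class 3 genes held 51 KO and 45 WT peaks, or 44.3 per Mb (32.95 to 58.2) and 39.1 per Mb (28.5 to 52.3). The 4 class 6 genes held 35 and 17, or 46.6 per Mb (32.5 to 64.8) and 22.6 per Mb (13.2 to 36.3). Plexins had 24 and 19 peaks (24.9 and 19.7 per Mb), netrins 17 and 21 (23.6 and 29.1 per Mb) and EphA receptors 43 and 42 (20.49 and 20.02 per Mb). All of the netrin peaks lay in Ntng1, a membrane-anchored netrin-G, and none in Ntn1 or Ntn4. Robo genes, with 32 and 34 peaks over 2.62 Mb, the Dcc and Unc5 receptors, with 31 and 28, the Slits, with 14 and 10, and the EphB receptors, with 7 and 10, lay between 9.30 and 14.3 per Mb in both lists. Class 4 semaphorins, class 7 (Sema7a alone) and the neuropilins had 0 peaks in each library, which allows up to 3.69 peaks for each family. Ligands as a whole had 27.0 per Mb in KO and 21.7 in WT, and receptors 15.5 and 15.0.

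**Figure D2:**
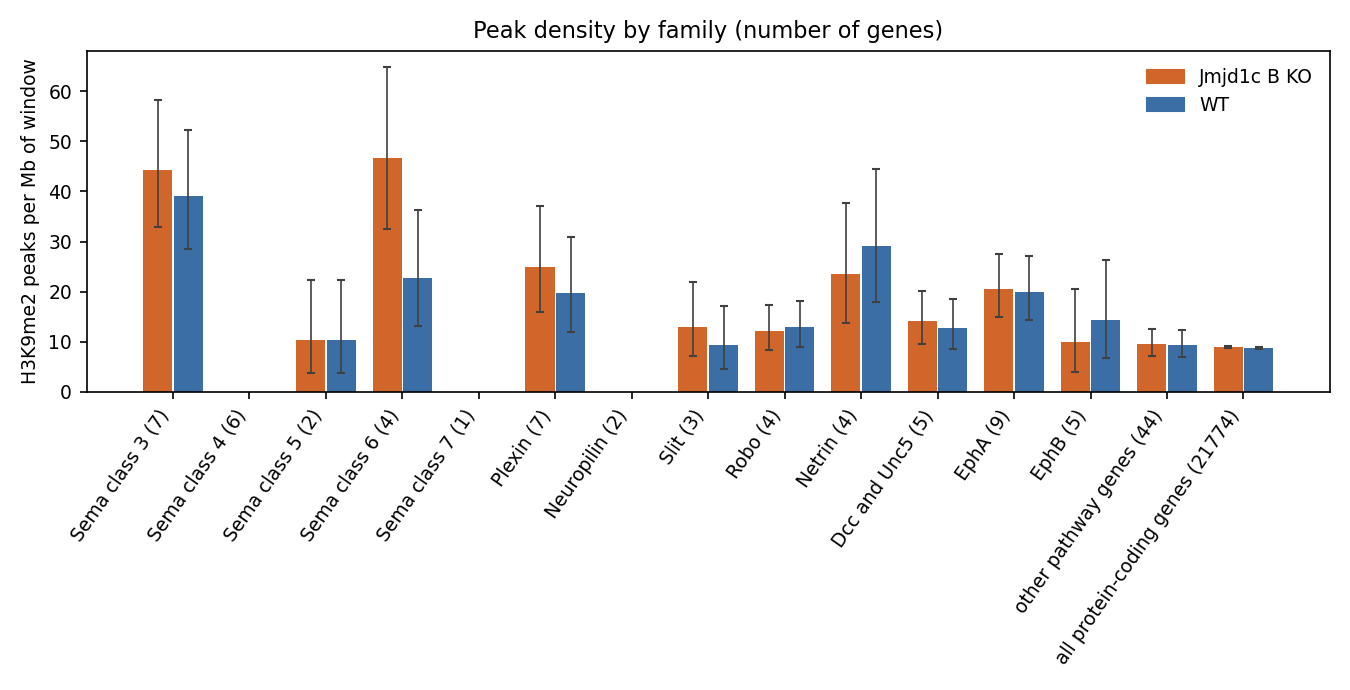
H3K9me2 peaks per Mb of window (y axis) for each guidance family, for 44 other genes of the pathway and for all protein-coding genes (x axis, number of genes in parentheses), KO left of WT in each pair. Bars start at 0 and lines are exact 95% Poisson intervals for counting error. Class 3 semaphorins reach 44.3 and 39.1 per Mb, class 4 has none, and class 6 stands at 46.6 in KO against 22.6 in WT.

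Among class 3 semaphorins, the secreted ligands, the peaks lay in 4 of 7 genes. Sema3a, which repels axons through neuropilin and class A plexins (chromosome 5, 13124822 to 13603485, GRCm38.p6), had 28 KO and 26 WT peaks. Sema3d had 12 and 11, and Sema3c, which acts in heart outflow tract development, had 10 and 7. Their densities were 57.2 to 62.7 per Mb in KO and 43.9 to 53.9 per Mb in WT, and intervals of these 3 genes overlap widely. Sema3e, whose protein binds Plxnd1 directly, had 1 and 1 peak over a window of 235 kb (4.25 per Mb). Sema3b, Sema3f and Sema3g, all with windows under 33 kb, had none.

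Sema3d, Sema3a and Sema3e follow one another along chromosome 5, and the called peaks thinned out between the last 2. From the start of Sema3d, each of the first 13 bins of 100 kb held 3 to 9 KO peaks and 3 to 8 WT peaks, in the gene bodies and between them alike. The 500 kb below Sema3a, between it and Sema3d, held 37 KO and 29 WT peaks, whereas the 500 kb beyond it held 15 and 6. In the 7 bins after 1300 kb no bin held more than 2 peaks in either library, and the 2 bins from 1700 to 1900 kb, which hold most of Sema3e, had none. The single Sema3e peak of each library sat at its start, from 14025426 to 14026064 in KO and from 14025277 to 14025872 in WT.

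**Figure D3:**
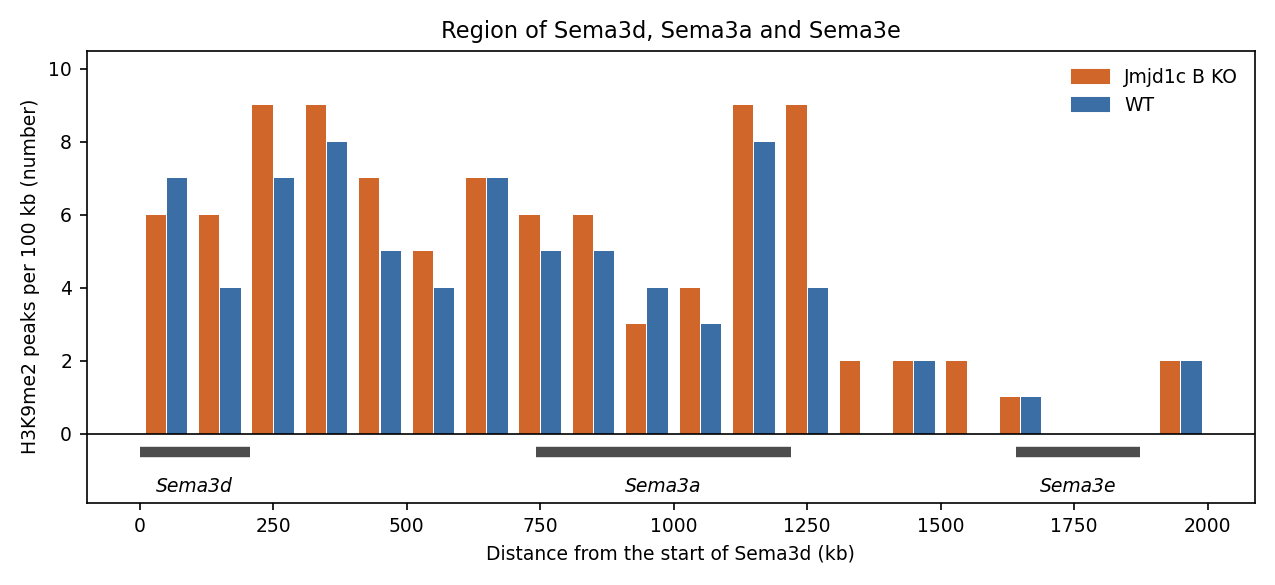
Peak midpoints per 100 kb (y axis, number) against the distance in kb from the start of Sema3d (x axis), KO left of WT in each bin, with gene bodies as grey bars under the axis. Bins up to 1300 kb hold 3 to 9 KO and 3 to 8 WT peaks, and those over Sema3e hold 1 or none.

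Semaphorins that lymphocytes use had no peak. All 6 class 4 genes, Sema4a, Sema4b, Sema4c, Sema4d, Sema4f and Sema4g, had no peak in either library, and neither did Sema7a, Plxnb2 or Plxnd1. Of the 8 genes listed as lymphocyte-expressed, Plxnc1, the plexin that binds Sema7a, alone had a peak, 1 in each library. Most of these genes are short (median window 37.1 kb), a length at which few genes of any kind had a peak, so their count is near the background. Sema4d (chromosome 13, 51685529 to 51793678) is the longest of class 4, with a window of 112 kb, and its nearest peak was 870.8 kb away in KO and 871.0 kb in WT. For Sema4a the nearest peak was 1010.6 kb away in each library, and for Sema7a 1968.5 kb in KO and 3581.7 kb in WT. Among class 4 as a whole the distance ran from 380.1 to 1652.4 kb in KO and from 348.0 to 1771.3 kb in WT. The remaining semaphorins without a peak, none of them listed as lymphocyte-expressed, were similarly far from one. Their distances ran from 533.1 kb (Sema5b) to 1641.8 kb (Sema3b) in KO, and from 532.9 to 2009.9 kb for the same genes in WT. Long distances were thus not particular to the lymphocyte-expressed genes. The Plxnc1 peak was the strongest of all in the members, from 94872026 to 94872365 on chromosome 10 in KO and from 94871924 to 94872468 in WT. It ranked 92 of the KO list and 118 of the WT list by the authors' q-value, with pileups of 83.0 and 61.0 against list medians of 19.1 and 25.3. It lay 72.8 kb from the gene start in both libraries and was 340 bp wide in KO and 545 bp in WT.

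Semaphorins held more peaks in KO than in WT as deposited, and 16 of the peaks by which they differed lay in Sema6d. The 20 semaphorins held 92 KO and 68 WT peaks, a KO to WT ratio of 1.35 (0.978 to 1.88), while the other 39 genes held 168 and 164, a ratio of 1.02 (0.821 to 1.28). All protein-coding windows had a ratio of 1.02. By covered length the semaphorins stood at 43.8 kb in KO and 38.5 kb in WT, a ratio of 1.14, beside 0.818 over all coding windows. Without the KO peaks narrower than 292 bp the semaphorins held 60 KO and 68 WT peaks, a ratio of 0.882, and all coding windows stood at 0.676, since that setting removes KO peaks only. Sema6d, a transmembrane ligand of Plxna1 known from heart development (chromosome 2, 124089943 to 124667789), had 31 KO and 15 WT peaks, a ratio of 2.07 (1.08 to 4.12). Without it the semaphorins had 61 and 53 peaks, a ratio of 1.15 (0.783 to 1.70). Of the other 6 semaphorins with a peak, 4 had more in KO, by 1 to 3 peaks, and Sema3e and Sema5a had equal numbers, with 6 and 6 in Sema5a. Sema6a, a transmembrane ligand of Plxna2 and Plxna4, had 4 and 2. Sema5b, Sema6b and Sema6c had none.

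**Figure D4:**
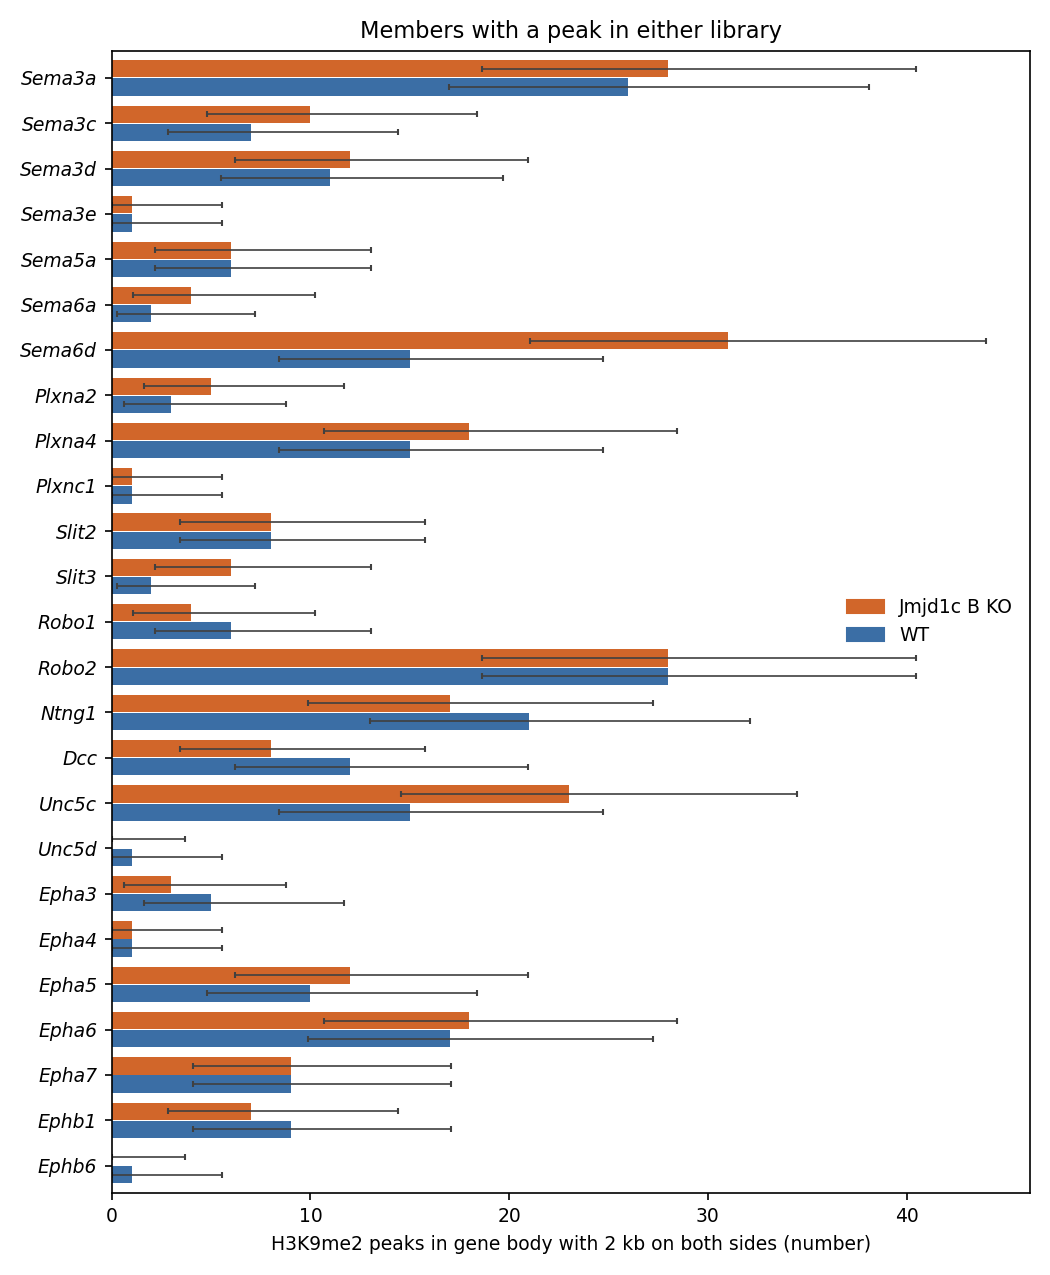
Number of H3K9me2 peaks (x axis) in the window of each of the 25 members with a peak in either library (y axis), KO bar above WT bar. Lines are exact 95% Poisson intervals for counting error. Sema6d stands at 31 KO and 15 WT peaks, Unc5c at 23 and 15, and Robo2 at 28 in each.

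Over all 21774 genes, 2 had a KO minus WT difference as large as the 16 peaks of Sema6d, itself and the diacylglycerol kinase gene Dgkb (60 KO and 44 WT peaks). The interval of the Sema6d ratio does not account for its having been noticed among so many genes. The difference lay 200 to 500 kb into the gene. The first 100 kb from its start held 5 KO and 5 WT peaks, and the next 100 kb held 3 and 4. From 200 to 300 kb there were 10 and 3, from 300 to 400 kb 9 and 3, and from 400 to 500 kb 4 and 0, with none in either library beyond. Beyond the gene, the next 500 kb held 3 KO and 3 WT peaks, and the 500 kb before its start held 17 and 12. Of 39 places in the gene with a peak of either library, 7 had one in both, 24 in KO only and 8 in WT only. The KO peaks of the 7 shared places lay 0.519, 76, 183.2, 219.9, 247.1, 323.1 and 390.3 kb from the start, and the strongest ran from 124272964 to 124273418.

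The Sema6d peaks found in KO only were weak and often narrow. Those 24 had a median −log10 q of 2.76, against 4.11 for the 7 KO peaks that overlapped a WT peak. They ranked at a median 63.5% of the way down the KO list by q, against 17.3% for the overlapped ones. Weakness of such peaks was not particular to Sema6d. Over all members the 142 KO peaks without a WT overlap had a median −log10 q of 2.81 and a median rank of 60.15%. At a q of 1e-05 or lower Sema6d had 2 KO peaks and 1 WT peak. Of the 24, 11 were narrower than 292 bp, the least width in the WT list, and leaving out all such KO peaks gave 19 and 15. That setting brought the ratio over all coding windows to 0.676, and 7 genes then had a difference as large as that of Sema6d. The difference in d moves with this result, and its part in it was not tested.

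**Figure D5:**
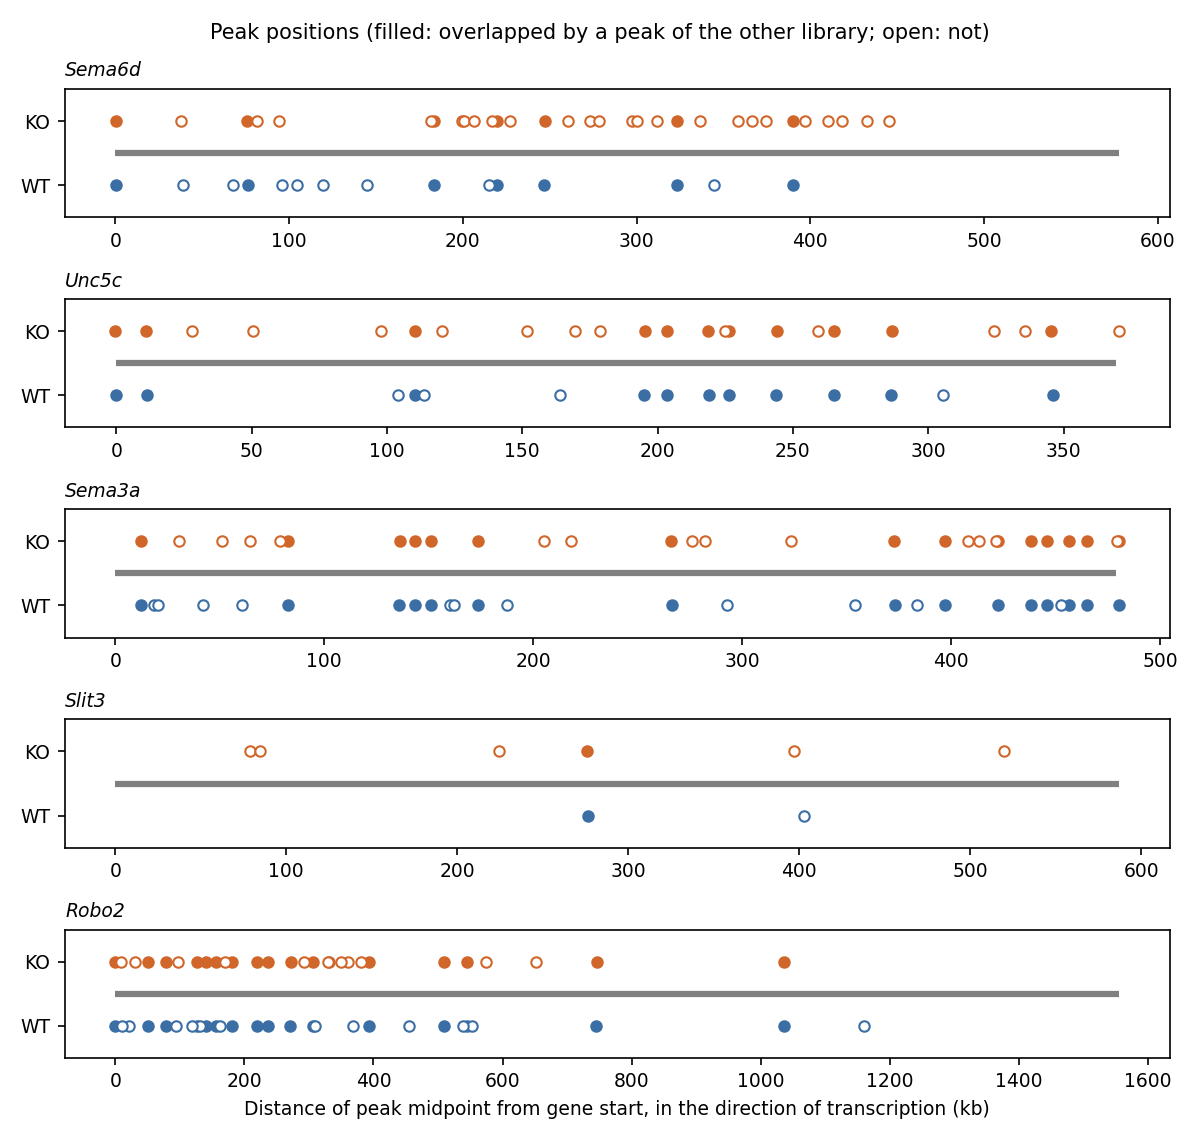
Midpoints of KO peaks (upper row) and WT peaks (lower row) along 5 guidance genes, as distance from the gene start in kb (x axis). The grey bar is the gene body, filled circles overlap a peak of the other library and open circles do not. In Sema6d the open KO circles crowd between 200 and 500 kb, while in Robo2 the peaks of both libraries lie mainly toward the start.

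A difference of at least 1.5-fold and at least 4 peaks was reached by 3 members with more peaks in KO, against 0.289% of all genes, and by 1 with fewer, against 0.253%. Such a difference needs several peaks, which few genes have. Of the 16 members with 10 or more peaks over both libraries, 2 passed upward and 1 downward (12.5% and 6.25%), beside 9.01% and 6.99% of all genes with that many. Those shares are near each other. Besides Sema6d they were Unc5c, Slit3 and Dcc. Unc5c, a repulsive netrin receptor (chromosome 3, 141465564 to 141834924), had 23 KO and 15 WT peaks (ratio 1.53, 0.766 to 3.16), of which 21 and 15 lay in the gene body. Slit3, a Robo ligand (chromosome 11, 35121456 to 35708507), had 6 and 2 (ratio 3, 0.536 to 30.4). Its KO peaks lay 78.7, 84.5, 224.4, 276.1, 397.0 and 519.4 kb from the start and its WT peaks 276.3 and 402.5 kb, with 1 place shared. Dcc, the attractive netrin receptor, had 8 KO and 12 WT peaks over a window of 1102 kb (ratio 0.667, 0.236 to 1.77). By covered length Unc5c went against its call, with 9077 bp in KO and 9603 bp in WT. Sema6d (14296 and 10455 bp), Slit3 (1987 and 660 bp) and Dcc (3166 and 6582 bp) went the same way as theirs. At a q of 1e-05 or lower none of the 4 kept its call, while 1 other member, Robo2, passed downward with 2 KO and 8 WT peaks. Over all genes 0 passed upward there and 22 downward. Without the KO peaks narrower than 292 bp Sema6d, Unc5c (15 and 15) and Slit3 (2 and 2) lost theirs, in a setting where 5 of all 21774 genes passed upward, against 63 as deposited, and 245 downward, against 55. Over the gene body alone Dcc had 8 and 11 and Unc5c 21 and 15, which ends both calls. Counting every difference, however small, 11 members had more peaks in KO (4.49% of all genes did) and 7 had fewer (4.14%), and 7 with peaks had equal numbers. Genes without a peak cannot differ, and most genes had none. Of the 2569 coding genes with a peak in either library, 977 had more in KO, 901 had fewer and 691 had equal numbers.

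Receptors and ligands of other families differed more between paralogs than between genotypes. Robo2 and Robo1, Slit receptors side by side on chromosome 16, had 28 KO and 28 WT peaks (17.95 per Mb in each) and 4 and 6 (3.91 and 5.86 per Mb). Robo3 and Robo4 had none. Among netrin receptors, Unc5d is 573 kb long, yet held 0 KO peaks and 1 WT peak, and the shorter Unc5a and Unc5b had none. Ntng1, which encodes a membrane-anchored netrin-G, had 17 and 21 peaks (45.5 and 56.2 per Mb), whereas Ntn1, Ntn4 and Ntng2 had none. Plxna4, a coreceptor for class 3 semaphorins, had 18 and 15, Plxna2 5 and 3, and Plxna1, Plxnb1, Plxnb2 and Plxnd1 none. Slit2 had 8 and 8, and Slit1 none over 153 kb.

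EphA receptors with peaks were Epha5 (12 KO and 10 WT), Epha6 (18 and 17), Epha7 (9 and 9), Epha3 (3 and 5) and Epha4 (1 and 1). Epha7, with a window of 158 kb, had 56.8 per Mb in each library, from 9 peaks (4.12 to 17.1). That was near the 57.2 to 62.7 per Mb of Sema3a, Sema3c and Sema3d in KO and above their 43.9 to 53.9 in WT. Epha1, Epha2, Epha8 and Epha10 had none. Among EphB receptors Ephb1 had 7 and 9, Ephb6 had 0 and 1, and Ephb2, Ephb3 and Ephb4 had none, Ephb2 over a window of 193 kb. Of the 8 members without a peak whose window reached 100 kb, Ephb2, Ntn1, Ntn4, Slit1, Sema5b and Sema4d also had none within 500 kb on either side, where 5 to 23 other coding genes lay. The neuropilins Nrp1 and Nrp2, coreceptors of class 3 semaphorins, differed from these, with 20 KO and 13 WT peaks and with 21 and 23 in those flanks.

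At the promoters of 8 guidance genes a peak stood in both libraries. Promoters, from 250 bases before to 50 after a RefSeq start, were given for 50 of the members and 17492 coding genes. Sema3c, Sema3d, Sema6d, Robo2, Unc5c, Epha5, Epha6 and Epha7 had a promoter overlapped in KO, 8 of 50, against 1.42% of all genes. In WT it was these 8 and Sema3e, 9 of 50, against 1.44%. Overlap in both libraries held for 8 of 50 genes (16%), against 0.8% of all. Among genes with a window of 200 kb or more the share was 6 of 16 members (37.5%) and 7.23% of all genes, and this difference was not tested. The peak at the Epha5 promoter also lay in the window of the predicted gene Gm42163.

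The promoters are shown for 4 of these genes and, beside them, for Sema4b and Sema4d, which had no peak. For a gene with several listed promoters the outermost is shown, of 3 in Sema4d. The outermost listed start of Sema4d lies inside its annotated gene body, which on the minus strand begins at 51793678. Each line gives the 250 bases before the start, 5′ to 3′ on the gene's strand, from RefSeq on GRCm38.p6, with every CG dinucleotide in capitals.
Sema6d, chr2:124089719-124089968, plus strand: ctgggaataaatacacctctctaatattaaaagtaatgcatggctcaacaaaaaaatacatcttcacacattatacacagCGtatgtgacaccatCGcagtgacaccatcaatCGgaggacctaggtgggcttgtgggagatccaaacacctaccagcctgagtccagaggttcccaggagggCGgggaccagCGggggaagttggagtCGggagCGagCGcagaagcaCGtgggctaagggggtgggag
Sema3c, chr5:17574566-17574815, plus strand: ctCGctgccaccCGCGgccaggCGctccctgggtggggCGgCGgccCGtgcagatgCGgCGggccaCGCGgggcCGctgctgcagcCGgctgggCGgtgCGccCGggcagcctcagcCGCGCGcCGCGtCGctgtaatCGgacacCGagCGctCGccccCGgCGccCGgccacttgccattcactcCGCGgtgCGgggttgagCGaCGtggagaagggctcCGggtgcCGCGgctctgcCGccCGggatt
Unc5c, chr3:141465314-141465563, plus strand: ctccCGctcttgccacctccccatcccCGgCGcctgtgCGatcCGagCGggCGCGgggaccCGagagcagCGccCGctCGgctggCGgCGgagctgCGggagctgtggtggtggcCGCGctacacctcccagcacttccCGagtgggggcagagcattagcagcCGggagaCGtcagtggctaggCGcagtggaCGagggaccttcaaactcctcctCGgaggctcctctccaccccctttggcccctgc
Epha7, chr4:28812881-28813130, plus strand: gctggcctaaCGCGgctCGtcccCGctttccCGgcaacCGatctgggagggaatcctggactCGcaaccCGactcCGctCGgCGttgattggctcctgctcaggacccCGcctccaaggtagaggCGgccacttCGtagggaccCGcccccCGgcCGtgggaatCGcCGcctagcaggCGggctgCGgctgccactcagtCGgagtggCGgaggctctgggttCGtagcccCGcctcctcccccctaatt
Sema4b, chr7:80186620-80186869, plus strand: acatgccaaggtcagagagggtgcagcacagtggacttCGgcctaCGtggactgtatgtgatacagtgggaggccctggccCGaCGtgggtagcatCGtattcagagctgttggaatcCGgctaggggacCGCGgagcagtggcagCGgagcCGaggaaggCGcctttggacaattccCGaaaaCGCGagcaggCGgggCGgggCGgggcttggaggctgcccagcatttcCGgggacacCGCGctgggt
Sema4d, chr13:51756684-51756933, minus strand: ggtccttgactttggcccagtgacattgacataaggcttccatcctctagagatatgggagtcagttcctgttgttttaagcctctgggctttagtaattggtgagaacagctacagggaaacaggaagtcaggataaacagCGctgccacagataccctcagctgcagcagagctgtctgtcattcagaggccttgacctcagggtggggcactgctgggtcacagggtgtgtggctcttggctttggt

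CG is its own reverse complement, so 1 strand shows all sites. These stretches hold 9 CG in Sema6d, 39 in Sema3c, 23 in Unc5c, 25 in Epha7, 20 in Sema4b and 1 in Sema4d. The stretches without a peak thus lay on both sides of that of Sema6d, with that of Sema4d at a start inside its gene. Other members without a peak were also rich in CG, with 30 in Sema4g, 37 in Unc5a and 56 in Epha8 over the 300 bases. Of these 250 bases the KO peak covered 107 in Sema6d, 189 in Sema3c, 72 in Unc5c and 250 in Epha7, and the WT peak covered 126, 220, 250 and 250. In Sema4b and Sema4d 0 were covered. Over the whole 300 bases, the promoter with the most CG of each gene had a median of 20.5 in the 8 members overlapped in both libraries, 23 in the 50 members and 15 in all 17492 genes. At least 1 CG was present in 95.4% of the 21263 promoters used for coding genes. The count describes these letters and was not tied to the mark by a test.

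By q, these promoter peaks ranked from 17.3 to 63.0% of the way down the KO list and from 7.21 to 87.7% down the WT list. That of Sema6d ran from 124089862 to 124091061 in KO and from 124089843 to 124090961 in WT, and ranked 5560 of the KO list and 6353 of the WT list by q. The widest covered the start of Epha5, 2433 bp in KO and 2360 bp in WT. The narrowest was that of Sema3c, 189 bp in KO and 302 bp in WT. Robo2 had peaks in both libraries at 2 of the listed promoters, one at its annotated start and another inside the gene.

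Within gene bodies the peaks leaned toward the start when pooled, though not in every gene. Bodies of members with known strand were cut into 3 equal parts, and the part nearest the start held 46.7% of 225 KO peaks and 54.5% of 198 WT peaks. The start here is the edge of the annotated gene body. The only listed promoters of Sema3a (chromosome 5, 13396534 to 13396833) and Robo1 (chromosome 16, 72662899 to 72663198) lie far inside it. Over all coding genes with strand it held 36.2% and 37.0%. Robo2 accounted for some of this, with 23 of 28 KO and 22 of 28 WT peaks in that part, and without it the members stood at 41.6% and 50.6%. In Epha5 the part held 11 of 12 and 10 of 10 peaks. Sema6d differed between libraries, with 7 of 31 KO peaks and 9 of 15 WT peaks there, and Sema3a had 9 of 26 and 9 of 25. The part farthest from the start held 11 KO and 10 WT peaks of Sema3a.

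Peaks of the guidance genes recurred between the libraries about as often as peaks elsewhere. Of the 260 KO peaks 118 were overlapped by a WT peak (45.4%, 39.2 to 51.7%), and of the 232 WT peaks 117 were overlapped by a KO peak (50.4%, 43.8 to 57.0%). Over all coding windows the shares were 44.7% and 45.4%. Within the members they varied, from 8 of 10 places with a peak in both libraries in Epha7 and 16 of 40 in Robo2 to 1 of 11 in Sema5a and 0 of 8 in Plxna2. Of the KO peaks 5.38% passed a q of 1e-05, against 8.10% of the whole list, and of the WT peaks 11.2%, against 13.0%. No member peak had a pileup of 100 or more.

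Other genes of the pathway carried fewer peaks per Mb than the members, and their windows were shorter, with a median of 73.0 kb against 119.4 kb. Of 44 ephrins, netrin and plexin paralogs, adhesion molecules and intracellular effectors, 6 had a peak in KO and 8 in WT, with 50 and 49 peaks in all (9.52 and 9.33 per Mb, close to all coding windows). Chl1 (14 KO and 11 WT peaks) and Nrcam (12 and 15), both adhesion molecules of the L1 family, held most of them together with Dscam, an adhesion receptor (11 and 5). Efna5, an ephrin ligand of EphA receptors, had 5 and 5, Dpysl3, a collapsin response mediator gene, 5 and 4, and the kinase gene Pak3 3 and 4. Met, the receptor of hepatocyte growth factor, had 0 KO and 4 WT peaks, and Efnb2, a transmembrane ephrin, 0 and 1. The other 36 had none, among them Rhoa, Rac1 and Cdc42, small GTPases that all these pathways share, with windows of 26.6 to 42.1 kb. The longest of the 36 were Dscaml1, Ablim1 and Srgap1, with windows of 330.3, 286.6 and 270.9 kb.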

How the data were processed

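H3K9me2 was profiled by CUT&Tag in 1 KO and 1 WT library. Trim Galore 0.6.6, Bowtie2 2.4.2, SAMtools 1.11, Picard, HOMER, deepTools and mm10 are named in the submitters' processing notes. Per the file headers, the authors called broad peaks with MACS2 2.2.7.1 at a q of 0.01, single-end, with all duplicates kept and no control library. The deposited values per peak are a position, a pileup (signal, in tags), a fold enrichment (ratio) over the background of a 10000 bp range, and −log10 p-values and q-values. They describe and rank peaks within a list only.

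Peaks of the autosomes, X and Y were assigned by overlap of at least 1 bp to gene windows of the RefSeq table (GRCm38.p6), with Python 3.11.15, pandas 2.3.3, numpy 2.4.6 and scipy 1.17.1. Figures used matplotlib 3.10.9. Counts have exact Poisson intervals, ratios exact binomial-based ones and shares Clopper-Pearson ones, all at 95%. The counting steps were tested on simulated data. Named were all members with a peak, the 8 lymphocyte-expressed genes, members passing the difference rule of 1.5-fold and 4 peaks, and pathway genes with a peak. Members named without a peak beyond these, and the genes set beside Sema6d, were chosen after their values were seen. Of members passing the rule, every peak position is printed for Slit3. The members and lists were chosen with earlier results of these data known. Alternatives changed the q threshold, the flanks, the assignment of peaks, KO peak width, merging within 5 kb and the overlap rule. Leaving out narrow KO peaks, and the difference rule under each alternative, were added after seeing the data. No genome sequence was used, so exons and introns are not given.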

Additional observations from a re-analysis of the deposited data

How the results depend on the processing

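Of the settings tried, a stricter q and leaving out narrow KO peaks moved the results most, and each brought the KO to WT ratio of the members, 1.12 as deposited, below 1. At a q of 1e-05 or lower the members held 14 KO and 26 WT peaks in 10 and 12 genes, a ratio of 0.538 (0.602 over all coding windows). There 23.1% of WT peaks were overlapped. In that setting 0 members passed the difference rule upward and 1, Robo2, downward, beside 0 and 22 of all genes. The semaphorins alone held 7 and 4 peaks there, a ratio of 1.75 (0.445 to 8.15). Leaving out KO peaks narrower than 292 bp, chosen after seeing the data, left 166 KO peaks and ratios of 0.716 for members and 0.882 for semaphorins, against 0.676 over all coding windows. Overlapped shares were then 51.8% for KO and 37.1% for WT, and 0 members passed the difference rule upward and 6 downward, beside 5 and 245 of all 21774 genes. That setting removes KO peaks only. Lengthening each called KO peak left the ratios at 1.12 for members and 1.35 for semaphorins. This changes only the edges of peaks already in the list, and the windows are far longer than the peaks. The counts could therefore hardly move, and the setting cannot show how the shorter d affected which KO peaks were called. Over gene bodies alone 0 members passed downward, beside 54 of all genes. A reciprocal overlap of 50% lowered the overlapped shares to 27.3% in KO and 30.6% in WT. Of the remaining recomputed values 90 stayed within the limits set for them, and 9 differences of single genes lost their call. No paired analysis was possible because each genotype had a single library. Leaving out a replicate was not possible for the same reason. Peaks are weak at this depth, with median pileups of 19.1 in KO and 25.3 in WT, so a gene without a peak is not shown to lack the mark.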
